A study of Arabidopsis thaliana and Solanum lycopersicum with 40 samples.

Results

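Arabidopsis builds aliphatic glucosinolates, sulfur-rich defence compounds made from methionine, in roots as well as leaves. The 10 genes described here encode the enzymes of the core structure step, in which a methionine with a lengthened side chain becomes a glucosinolate. They were taken by their gene identifiers from a table of 33557 genes: CYP79F1 (AT1G16410), CYP79F2 (AT1G16400), CYP83A1 (AT4G13770), GSTU20 (AT1G78370), GGP1 (AT4G30530), SUR1 (AT2G20610), UGT74B1 (AT1G24100), UGT74C1 (AT2G31790), SOT17 (AT1G18590) and SOT18 (AT1G74090). Transcript levels came from RNA sequencing of Col-0 roots that were shaded or left unshaded, sampled 30 min, 3 h and 7 h into the treatment and again after 1 d, 3 d and 5 d. All 12 groups shared 5 d of growth in constant white light on agar plates before the treatment, and unshaded roots stayed in that light. Each group held 2 libraries, which made 24 in all, and the labels do not say whether replicates came from separate plates, so p-values measure the spread between these libraries.

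The route works as a chain. CYP79F enzymes turn the amino acid into an aldoxime, CYP83A1 oxidises the aldoxime, a glutathione S-transferase such as GSTU20 adds glutathione, and the gamma-glutamyl peptidase GGP1 trims it. The C-S lyase SUR1 then frees the thiol, UGT74B1 and UGT74C1 add glucose to it, and the sulfotransferases SOT17 and SOT18 add the sulfate. GGP1, SUR1 and UGT74B1 are also known to serve the tryptophan-derived (indolic) glucosinolates, whereas CYP79F1, CYP79F2, CYP83A1, GSTU20, UGT74C1, SOT17 and SOT18 are known mainly for the methionine-derived ones. The MYB28 transcription factor and its relatives are the known activators of the aliphatic genes.

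CYP79F1 and CYP79F2 are tandem neighbours on chromosome 1 (chr1:5608682-5612064 and chr1:5605044-5607498, plus strand, RefSeq annotation of TAIR10.1), and their coding sequences were identical at 91.4% of 1614 aligned bases, with a longest identical run of 100 bases. The 120 coding bases in which they differ most, with the 22 differing bases in capitals, show the best case for telling single fragments apart. They are given as coding bases 689 to 808 of CYP79F1 and 686 to 805 of CYP79F2, 5′ to 3′, from RefSeq TAIR10.1.
CYP79F1: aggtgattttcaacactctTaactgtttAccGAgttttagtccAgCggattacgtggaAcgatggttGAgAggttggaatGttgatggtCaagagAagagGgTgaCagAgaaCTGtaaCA
CYP79F2: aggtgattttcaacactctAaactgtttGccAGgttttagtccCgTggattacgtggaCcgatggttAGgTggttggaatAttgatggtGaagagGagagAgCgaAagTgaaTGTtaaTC
How fragments shared by both copies were assigned is not given in the sources used here, so the split between these genes is uncertain. SOT17 and SOT18 were identical at 78.2% of 1038 aligned coding bases and UGT74B1 and UGT74C1 at 61.7% of 1329, with longest identical runs of 26 and 14 bases. The other 8 genes lie apart from each other, SOT17 at chr1:6398531-6400029, UGT74B1 at chr1:8525334-8527087, SOT18 at chr1:27862814-27864193 and GSTU20 at chr1:29484120-29485389. SUR1 lies at chr2:8877887-8880440, UGT74C1 at chr2:13518199-13520364, CYP83A1 at chr4:7990429-7992429 and GGP1 at chr4:14920376-14922519.

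To set shared promoter letters beside the falls described below, the 250 bases before the annotated start of each gene were read from TAIR10.1, the RefSeq copy of the build TAIR10 that the submitters' processing notes name. They were searched, with the first 50 bases of the gene, on both strands for ACCNACC, an AC-like element of the kind bound by R2R3-MYB factors, and for CACGTG, the G-box bound by bHLH and bZIP factors. ACCNACC was present in 5 of the 10 windows, before the start of CYP79F2, CYP83A1, UGT74B1 and SOT17 and after the start of CYP79F1, and in 7.39% of 27443 windows of protein-coding genes. CACGTG was present in 2 of 10 (CYP83A1, SUR1) and in 7.68% of those windows. Shown here are 2 genes that fell steeply and hold a match (chr1:5604794-5605043, plus strand, and chr4:7992430-7992679, minus strand), 1 that fell steeply without a match (GSTU20, chr1:29485390-29485639, minus strand) and 1 that fell little and holds a match (UGT74B1, chr1:8527088-8527337, minus strand), with matches in capitals. The match to ACCNACC begins 104 bases before the start in CYP79F2, 71 in CYP83A1 and 81 in UGT74B1, and CACGTG begins 43 bases before it in CYP83A1.
CYP79F2: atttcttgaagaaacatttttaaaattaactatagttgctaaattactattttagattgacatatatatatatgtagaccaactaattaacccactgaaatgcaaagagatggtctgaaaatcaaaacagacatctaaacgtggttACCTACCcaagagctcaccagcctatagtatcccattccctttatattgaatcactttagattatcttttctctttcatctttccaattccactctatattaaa
CYP83A1: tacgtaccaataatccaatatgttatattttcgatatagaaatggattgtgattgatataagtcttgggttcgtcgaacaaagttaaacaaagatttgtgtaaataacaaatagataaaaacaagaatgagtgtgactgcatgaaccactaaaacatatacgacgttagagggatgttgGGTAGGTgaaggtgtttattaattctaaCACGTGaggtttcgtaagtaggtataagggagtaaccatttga
GSTU20: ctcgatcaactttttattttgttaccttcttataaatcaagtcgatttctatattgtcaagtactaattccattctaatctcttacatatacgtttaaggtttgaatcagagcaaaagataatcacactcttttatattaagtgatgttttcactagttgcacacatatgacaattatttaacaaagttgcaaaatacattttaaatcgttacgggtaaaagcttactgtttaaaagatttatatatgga
UGT74B1: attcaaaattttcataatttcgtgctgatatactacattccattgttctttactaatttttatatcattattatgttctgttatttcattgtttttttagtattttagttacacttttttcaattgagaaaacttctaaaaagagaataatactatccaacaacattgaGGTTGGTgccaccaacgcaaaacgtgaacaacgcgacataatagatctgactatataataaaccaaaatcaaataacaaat
A match is a string of letters in the window, and binding was not measured.

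Levels were deposited as FPKM, fragments scaled by transcript length and by the mapped fragments of the library, so levels of different genes can be set beside each other. Sums of FPKM ranged from 884979 to 994315 per library. The table holds no counts and absolute depth is unknown, but steps in the low values gave relative depths, with 1 as their centre, of 0.882 to 1.47 in shaded and 0.843 to 1.19 in unshaded libraries. All 5 root markers (PIN2, SCR, CASP1, COBL9, EXPA7) were above 0 in every library, and their summed level was 230 to 318 FPKM in unshaded and 234 to 344 in shaded roots. The root sum was higher in both shaded libraries than in both unshaded ones at 7 h, 1 d and 3 d. At 30 min it was lower, and at 3 h and 5 d the groups overlapped. CASP1 in shade was at 138% of its unshaded mean at 1 d, and COBL9 at 70.9% at 3 d. All 6 shoot markers (RBCS1A, RCA, SBPASE, CAB1, LHCB2.1, GAPA1) were above 0 too, with sums of 55.2 to 179.5 FPKM in unshaded and 96.5 to 205 in shaded roots. The shoot sum was higher in both shaded libraries than in both unshaded ones at each time from 30 min to 3 d, and lower at 5 d. At 5 d it was 96.5 and 108 against 179.5 and 152 FPKM. RBCS1A and CAB1 carry much of that sum, and single markers went the other way. LHCB2.1 in shade was at 17.4% of its unshaded mean at 1 d, 20.7% at 3 d and 7.74% at 5 d, and SBPASE was at 72.6% at 7 h and 71.6% at 1 d. The part of shoot transcripts in the results below was not tested.

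Genes with a mean of at least 1 FPKM over the 24 libraries were fitted with limma on log2(FPKM + 1), and called at a Benjamini-Hochberg adjusted p under 0.05 over all 19553 genes tested. A log2 fold change is shaded minus unshaded on this scale and understates the change of low genes. A gene said to fall or rise by such an amount was lower or higher in shaded than in unshaded roots. With 2 libraries against 2, an exact permutation test cannot give a p under 0.333, and the calls below use a spread that limma shares across genes and groups. Of the 10 members 9 passed the filter. CYP79F1 did not, because its level never exceeded 0.324 FPKM. In whole roots, fewer cells that express a gene and less RNA per cell cannot be told apart.

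The 9 tested genes were all lower in shaded roots averaged over the 6 times, and all 9 were called, where 35.9% of all genes tested were called lower. The size of the difference divided them. CYP83A1, CYP79F2, GSTU20 and UGT74C1 fell by 3.05 ± 0.06, 2.77 ± 0.06, 2.68 ± 0.06 and 2.15 ± 0.05 on the log2 scale (SE, adjusted p from 4.71e-14 to 5.56e-14). SOT18 and SOT17 fell by 1.22 ± 0.05 and 1.15 ± 0.05. SUR1, UGT74B1 and GGP1, the genes also known from the indolic route, fell by 0.67 ± 0.03, 0.53 ± 0.03 and 0.49 ± 0.04. The 95% intervals ran from -3.19 to -2.92 for CYP83A1 and from -0.57 to -0.40 for GGP1. Among all genes tested CYP83A1 had the second lowest average log2 fold change, and CYP79F2 and GSTU20 ranked 5 and 6 from the lowest end, UGT74C1 ranked 20. SOT18 and SOT17 ranked 131 and 153, SUR1 506, UGT74B1 785 and GGP1 886. The median of the 9 was -1.22, and that of all genes tested was -0.01.

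**Figure D1:**
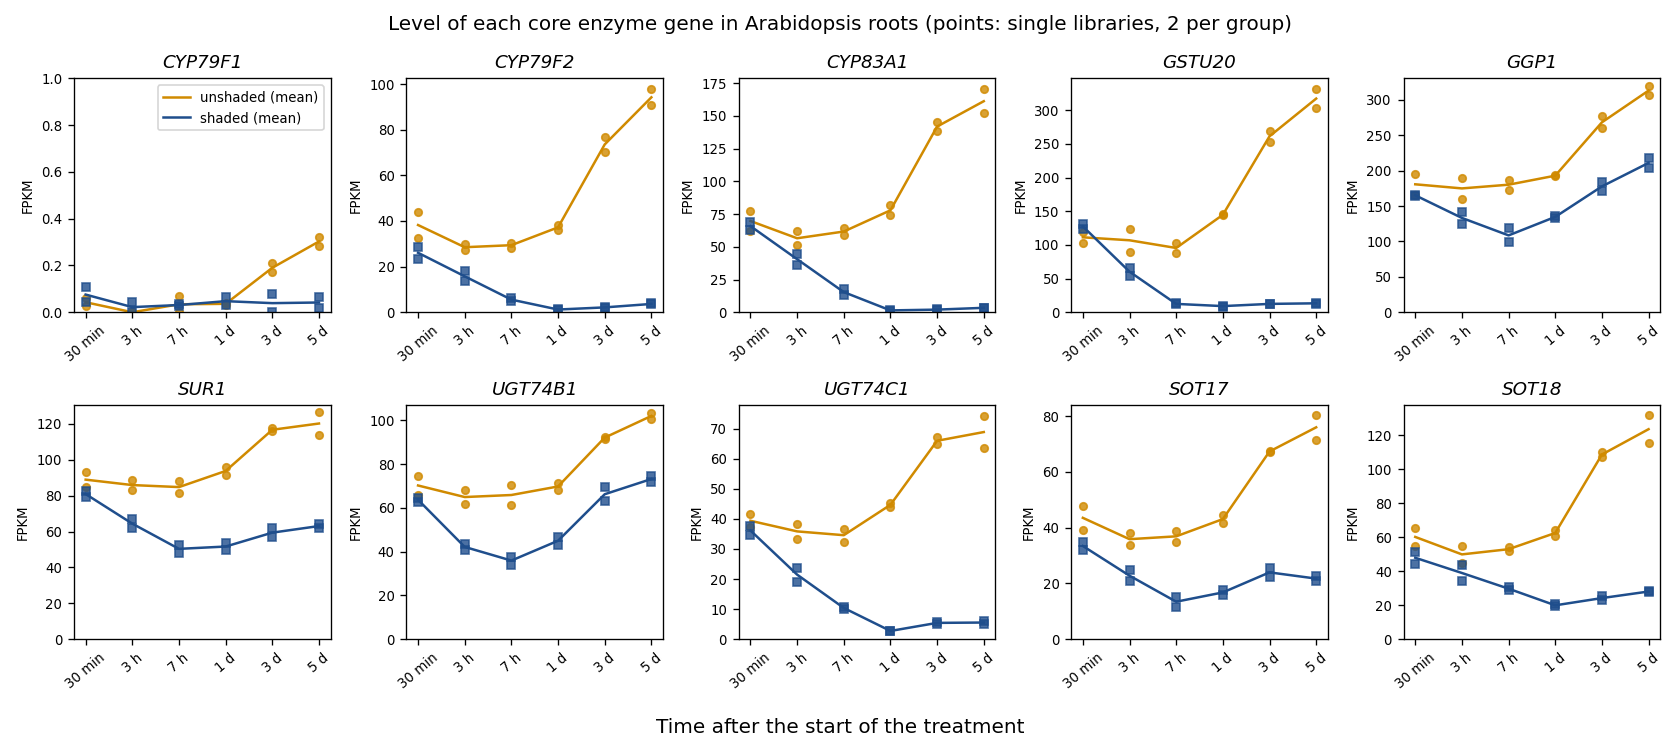
FPKM of each gene (y axis, from 0, scaled per panel) at the 6 times (x axis) in unshaded (orange circles) and shaded (blue squares) roots, with points for single libraries and lines through the means of 2. CYP79F1 stays at or under 0.324 FPKM, CYP79F2, CYP83A1, GSTU20 and UGT74C1 run near the axis in shade from 1 d, and GGP1, SUR1 and UGT74B1 keep over 50% of the unshaded level in shade.

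CYP79F2, which in Arabidopsis acts on long-chain methionine derivatives, was listed at higher levels than its neighbour CYP79F1 in every library. In unshaded roots it was at 32.5 and 43.9 FPKM after 30 min, 29.8 and 27.2 after 3 h, 28.3 and 30.5 after 7 h, 36.1 and 38.3 after 1 d, 76.9 and 70.2 after 3 d and 90.7 and 97.7 after 5 d. In shaded roots it was at 28.6 and 23.5 FPKM after 30 min, 13.6 and 17.9 after 3 h, 4.91 and 6.16 after 7 h, 1.25 and 1.13 after 1 d, 1.86 and 2.40 after 3 d and 3.41 and 3.88 after 5 d. The groups did not overlap at any time, and the shaded mean was 68.2% of the unshaded one at 30 min, 18.8% at 7 h and 3.20% at 1 d. It was the 1 member called at 30 min (log2 fold change -0.53 ± 0.15 SE, adjusted p = 0.0476, limma), where 2.29% of genes were called lower. That call was lost in 17 of 24 fits that each left out 1 library. The adjusted p of CYP79F2 was 0.395 without the second unshaded library of 30 min (log2 fold change -0.32), 0.388 without the second shaded one (-0.39) and 0.052 without the first shaded one (-0.66). In the other 14 of these fits it lay between 0.0554 and 0.0612, with the same log2 fold change of -0.53. At 3 d the log2 fold change was -4.58 ± 0.15.

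CYP79F1, which acts on short- and long-chain derivatives, was listed at or near 0. Its level was 0 to 0.324 FPKM in the 12 unshaded and 0 to 0.109 in the 12 shaded libraries, with 3 and 2 of them listed at 0. In unshaded roots it was 0.210 and 0.171 FPKM at 3 d and 0.324 and 0.282 at 5 d, and in shaded roots 0 and 0.0779, then 0.0193 and 0.0641. The unshaded libraries of 3 d and 5 d lay above the shaded ones. The neighbour CYP79F2 was at 70.2 to 97.7 FPKM in those unshaded libraries, and how shared fragments were split was not tested, so no fold change is given.

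CYP83A1, the aldoxime oxidase, showed the deepest fall of the members. In unshaded roots its level was 62.3 and 77.1 FPKM after 30 min, 61.9 and 51.1 after 3 h, 59.0 and 64.3 after 7 h, 74.0 and 81.7 after 1 d, 145 and 138 after 3 d and 152 and 170.2 after 5 d. In shaded roots its level was 68.9 and 62.7 FPKM after 30 min, 36.4 and 44.7 after 3 h, 13.0 and 17.8 after 7 h, 1.31 and 1.51 after 1 d, 1.61 and 2.41 after 3 d and 3.20 and 3.57 after 5 d. The groups overlapped at 30 min (log2 fold change -0.08 ± 0.15 SE, adjusted p = 0.867, limma) and at no later time. Its shaded mean was 25.0% of the unshaded one at 7 h, and from 1 d the unshaded mean was higher by factors of 55.2 (1 d), 70.6 (3 d) and 47.6 (5 d). The call at 3 h (log2 fold change -0.47 ± 0.15, adjusted p = 0.0362) was lost without the first unshaded (-0.34, adjusted p = 0.227) or the first shaded library of that time (-0.33, adjusted p = 0.245).

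GSTU20, a tau-class glutathione S-transferase assigned to this step, was at 30 min the 1 tested member with a higher mean in shade. In unshaded roots its level was 103 and 119 FPKM after 30 min, 124 and 90.0 after 3 h, 88.0 and 103 after 7 h, 146 and 144 after 1 d, 269.7 and 253 after 3 d and 304 and 331 after 5 d. In shaded roots its level was 131 and 124 FPKM after 30 min, 54.6 and 66.0 after 3 h, 13.1 and 11.7 after 7 h, 9.90 and 8.36 after 1 d, 12.9 and 11.9 after 3 d and 12.4 and 14.2 after 5 d. The groups did not overlap at any time, but the difference at 30 min was not called (log2 fold change 0.20 ± 0.13 SE, adjusted p = 0.489, limma). GSTU20 had the lowest log2 fold change of the members at 7 h, -2.84 ± 0.13, when its shaded mean was 13.0% of the unshaded one. At 5 d it was 4.19%.

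GGP1 and SUR1, which process the glutathione conjugate, were among the members that fell least. GGP1, which takes off the gamma-glutamyl group, ranged from 160 to 319 FPKM in the 12 unshaded libraries with a median of 193, and from 98.8 to 218 in the 12 shaded ones with a median of 153. Its mean level in shade was 91.4% of the unshaded one at 30 min, 60.3% at 7 h and 67.4% at 5 d. The call of GGP1 at 3 h (log2 fold change -0.39 ± 0.10 SE, adjusted p = 0.0086, limma) was lost without the first unshaded (-0.26, adjusted p = 0.106) or the first shaded library of that time (-0.30, adjusted p = 0.093). SUR1, the C-S lyase whose loss is known to raise auxin, ranged from 81.4 to 126 FPKM in unshaded libraries, with a median of 92.4, and from 48.1 to 82.4 in shaded ones, with a median of 61.8. Its mean in shade was 59.4% of the unshaded one at 7 h and 52.5% at 5 d. Neither gene had overlapping groups at any time, though at 30 min the gap for GGP1 was only between 166.1 and 166.2 FPKM.

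The glucosyltransferases differed in how far they fell. UGT74B1, shared with the indolic route, was in unshaded roots at 66.0 and 74.5 FPKM after 30 min, 68.1 and 61.8 after 3 h, 61.4 and 70.3 after 7 h, 71.2 and 68.3 after 1 d, 91.7 and 92.5 after 3 d and 101 and 103 after 5 d. In shaded roots UGT74B1 was at 62.7 and 64.7 FPKM after 30 min, 40.7 and 43.6 after 3 h, 37.8 and 34.1 after 7 h, 46.8 and 43.1 after 1 d, 69.5 and 62.9 after 3 d and 74.7 and 71.7 after 5 d. Its level in shade went down to a mean of 35.9 FPKM at 7 h and back to 73.2 at 5 d, above the 63.7 of shaded roots at 30 min. UGT74C1 was in unshaded roots at 37.2 and 41.5 FPKM after 30 min, 38.3 and 33.4 after 3 h, 32.5 and 36.7 after 7 h, 43.9 and 45.4 after 1 d, 67.1 and 64.8 after 3 d and 63.6 and 74.1 after 5 d. In shaded roots UGT74C1 was at 37.7 and 34.5 FPKM after 30 min, 19.2 and 23.8 after 3 h, 10.1 and 10.7 after 7 h, 2.82 and 2.69 after 1 d, 5.89 and 5.00 after 3 d and 4.93 and 6.18 after 5 d. Here the groups overlapped at 30 min only, and the shaded mean was 6.17% of the unshaded one at 1 d and 8.06% at 5 d, against 64.5% and 71.8% for UGT74B1. At 5 d the log2 fold changes were -3.42 ± 0.12 for UGT74C1 and -0.47 ± 0.08 for UGT74B1 (SE), with 95% intervals from -3.66 to -3.17 and from -0.64 to -0.31.

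The sulfotransferases that finish the molecule lay between these extremes. SOT18 was in unshaded roots at 55.0 and 65.3 FPKM after 30 min, 54.7 and 45.0 after 3 h, 51.8 and 54.1 after 7 h, 60.7 and 64.2 after 1 d, 110.1 and 107 after 3 d and 115 and 132 after 5 d. In shaded roots SOT18 was at 51.6 and 44.2 FPKM after 30 min, 34.5 and 43.4 after 3 h, 28.9 and 30.6 after 7 h, 20.5 and 19.4 after 1 d, 22.9 and 25.5 after 3 d and 27.7 and 28.4 after 5 d. SOT17 ranged from 33.8 to 80.4 FPKM in the unshaded libraries, with a median of 43.1, and from 11.7 to 34.7 in the shaded ones, with a median of 21.6. Groups did not overlap at any time for either gene. SOT17 reached its lowest shaded mean at 7 h (13.5 FPKM) and SOT18 at 1 d (19.9 FPKM). At 5 d the shaded mean was 28.6% of the unshaded one for SOT17 and 22.7% for SOT18. The call of SOT18 at 3 h (log2 fold change -0.35 ± 0.11 SE, adjusted p = 0.0354, limma) was lost without the first unshaded (-0.21, adjusted p = 0.277) or the first shaded library of that time (-0.19, adjusted p = 0.325).

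By time, all 9 tested members were called lower from 3 h onwards. Of all genes tested, 10.5% were called lower at 3 h, 20.6% at 7 h, 22.6% after 1 d, 29.6% after 3 d and 33.7% after 5 d. With median-of-ratios scaling 13.2% of all genes tested were called lower at 3 h and 26.8% at 5 d. The share of all calls that were lower moved with that scaling from 40.8% to 51.1% at 3 h and from 60.3% to 48.7% at 5 d. The median log2 fold change of the 9 went from -0.13 after 30 min and -0.61 after 3 h to -1.40 after 7 h and -1.60 after 1 d, and stood at -2.12 after 3 d and -2.096 after 5 d, while that of all genes stayed between -0.07 and 0.03. When only the 4 libraries of 3 h were fitted, SUR1 and UGT74B1 kept their call there and the other 7 lost it, with the adjusted p of those 7 from 0.0507 to 0.234.

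**Figure D2:**
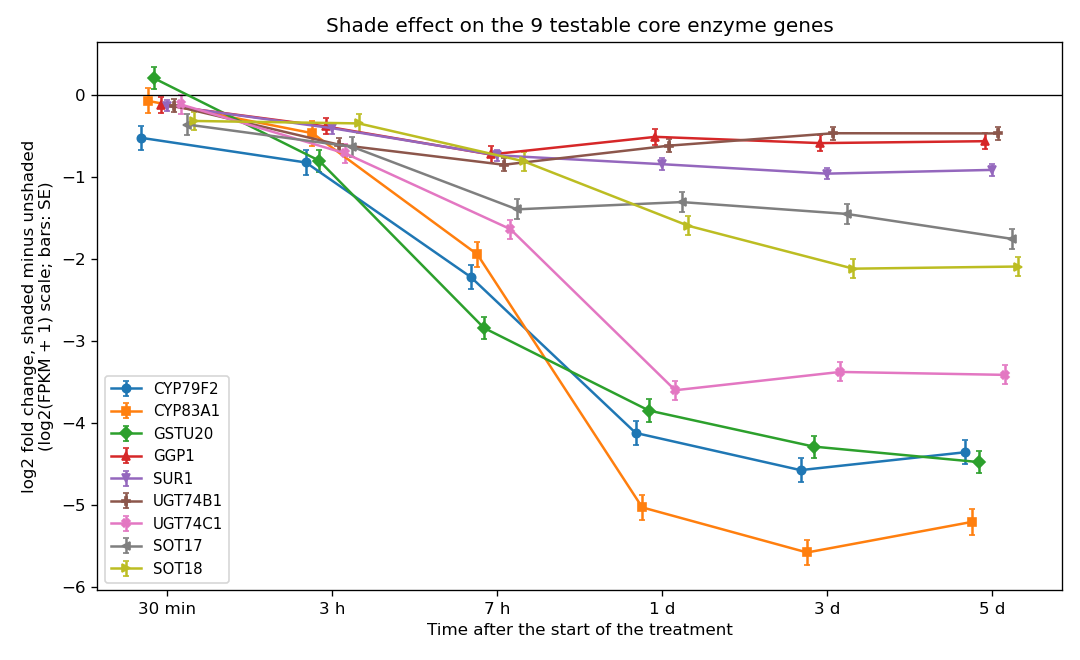
Log2 fold change, shaded minus unshaded, on the log2(FPKM + 1) scale (y axis) at the 6 times (x axis) for the 9 tested genes, with SE bars from limma. From 1 d on, CYP83A1, CYP79F2, GSTU20 and UGT74C1 lie under -3, SOT17 and SOT18 between -1 and -3, and SUR1, GGP1 and UGT74B1 above -1.

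The shade effect differed between times for all 9 tested members in the light by time interaction, which was called for 55.8% of all genes. The adjusted p ranged from 5.69e-10 for CYP83A1 to 0.0215 for GGP1 (limma). From 30 min to 3 h the effect became more negative for 3 members, GSTU20, UGT74C1 and UGT74B1, where 4.14% of all genes did so. The call of UGT74C1 for that step ended without the filter on low values (adjusted p = 0.0554). From 3 h to 7 h the effect was called more negative for 5, CYP79F2, CYP83A1, GSTU20, UGT74C1 and SOT17 (1.63% of all genes). The changes of all 9 at that step ran from -2.04 to -0.24, and 9 had an unadjusted p under 0.05 in limma (4088 of all 19553 genes). From 7 h to 1 d the effect was called more negative for 5, CYP79F2, CYP83A1, GSTU20, UGT74C1 and SOT18 (1.14%). There the changes of the 9 ran from -3.08 to 0.23. The largest of these steps was that of CYP83A1 from 7 h to 1 d, -3.08 ± 0.22 (SE, adjusted p = 3.5e-06). From 1 d to 3 d no member (0) was called more negative in limma, where 3.12% of all genes were. An unadjusted p under 0.05 in limma was seen there for 4 of the 9 and for 3978 of all 19553 genes. From 3 d to 5 d 0 members were called in either direction, where 5.36% of all genes were. There 0 of the 9 had an unadjusted p under 0.05 in limma (4274 of all 19553 genes).

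The order of the levels changed with light. After 5 d without shade the mean levels were 317 FPKM for GSTU20, 313 for GGP1, 161 for CYP83A1, 123.5 for SOT18, 120.3 for SUR1, 102 for UGT74B1, 94.2 for CYP79F2, 76.0 for SOT17 and 68.8 for UGT74C1. The libraries of GSTU20 and GGP1 overlapped in this order, as did those of SOT18 and SUR1 and those of SOT17 and UGT74C1. After 5 d in shade the order was GGP1 at 211 FPKM, UGT74B1 at 73.2, SUR1 at 63.1, SOT18 at 28.1, SOT17 at 21.7, GSTU20 at 13.3, UGT74C1 at 5.55, CYP79F2 at 3.64 and CYP83A1 at 3.38, and there the last pair overlapped. GSTU20 went from the top of the order to the sixth place, and CYP83A1 from the third to the ninth.

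Levels in unshaded roots also moved. All 9 tested members changed with time there (adjusted p from 4.9e-07 to 7.01e-05, limma), where 34.3% of all genes did. Their unshaded means at 7 h were 0.769 to 0.997 times those at 30 min, and at 5 d they were 1.35 times for SUR1 to 2.85 times for GSTU20. CYP83A1, CYP79F2 and SOT18 stood at 2.31, 2.46 and 2.05 times. All 9 also changed with time in shaded roots (71.4% of all genes), but not alike. At 1 d the shaded means of CYP83A1, CYP79F2, GSTU20 and UGT74C1 were 0.0214, 0.0457, 0.0716 and 0.0763 times those at 30 min, and at 5 d 0.0514, 0.140, 0.104 and 0.154 times. GGP1 and UGT74B1 were at 0.657 and 0.564 times at 7 h and at 1.28 and 1.15 times at 5 d. The percentage of the unshaded level left in shade stayed at 1.42 to 2.099 for CYP83A1 from 1 d to 5 d, although its level in shade went from 1.31 and 1.51 FPKM to 3.20 and 3.57.

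**Figure D3:**
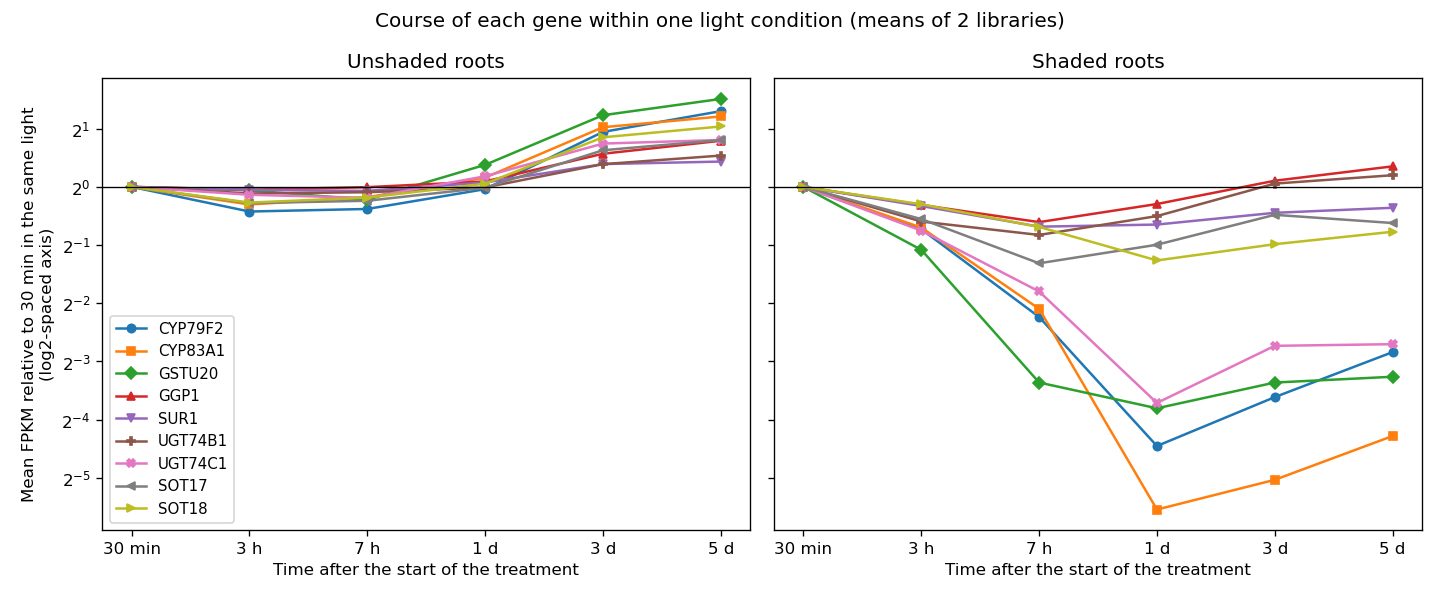
Mean FPKM relative to 30 min in the same light (y axis, log2-spaced) at the 6 times (x axis), in unshaded roots on the left and shaded roots on the right, 1 line per gene. All 9 genes rise after 1 d in unshaded roots, to between 1.35 and 2.85 times at 5 d, whereas in shade only GGP1 and UGT74B1 end above their 30 min level.

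Likeness to CYP83A1 was measured as Pearson's r in log2(FPKM + 1) over the 24 libraries, which share light and time, and is a description. Within the members r was 0.99 for UGT74C1, 0.98 for CYP79F2, 0.95 for GSTU20, 0.91 for SOT18, 0.85 for SUR1, 0.79 for SOT17, 0.46 for UGT74B1 and 0.45 for GGP1. Spearman's rho lay between 0.62 and 0.98. Within the 12 unshaded libraries r was 0.98 to 1.00 for all 8. Within the 12 shaded libraries it was 0.98 for CYP79F2 and 0.97 for UGT74C1, and -0.28 for GGP1 and -0.23 for UGT74B1. The 8 genes outside the members most like CYP83A1 were IPMI-SSU3 (AT3G58990), IPMDH1 (AT5G14200), IPMI-SSU2 (AT2G43100), BCAT4 (AT3G19710), AK3 (AT3G02020), AT1G21440, MAM3 (AT5G23020) and BAT5 (AT4G12030), with r from 0.98 to 1.00 over the 24 libraries. IPMI-SSU3, IPMDH1, IPMI-SSU2, BCAT4, MAM3 and BAT5, 6 of these 8, belong to the list for methionine chain elongation, the reactions and the chloroplast transporter that supply the CYP79F substrates. AK3 is an aspartate kinase, at the entry of the route to methionine.

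Elsewhere in glucosinolate metabolism the fall was uneven. All 10 chain elongation genes were called lower averaged over times, with a median log2 fold change of -2.17, from -3.28 ± 0.11 (SE) for BCAT4, the aminotransferase that starts elongation, to -0.25 ± 0.02 for IPMDH3. At 30 min 0 of these 10 were called in limma, where 1169 of all 19553 genes were. An unadjusted p under 0.05 was seen for 2 of the 10 and for 3618 of all genes. Of 8 side-chain genes 5 passed the filter, 4 were called lower and 1 higher (35.9% and 34.6% of all genes). FMOGS-OX3, an oxygenase of the methylthio group, fell by 1.70 ± 0.09 on the log2 scale, and GSL-OH, a hydroxylase of alkenyl side chains, rose by 0.11 ± 0.04 on average. The sign of GSL-OH changed with time, with a shaded mean at 162.5% of the unshaded one at 7 h (log2 fold change 0.70 ± 0.09, adjusted p = 3.04e-05, limma) and at 80.0% at 5 d (-0.31 ± 0.09, adjusted p = 0.0104). FMOGS-OX genes are close copies, so their single values are uncertain. MYB28 was the 1 of 3 aliphatic MYB genes that passed the filter and fell by 1.59 ± 0.04 (adjusted p = 2.73e-13, limma). MYB29 was at most 0.0841 FPKM and MYB76 was listed at 0 in all 24 libraries. MYB28 stood at 27.7 and 27.1 FPKM in shade and 30.2 and 32.2 without it at 30 min, and at 6.19 and 6.46 against 29.2 and 31.8 at 1 d.

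The parallel indolic enzymes had a smaller median difference averaged over times, -0.23 on the log2 scale against -1.22 for the aliphatic core, and this difference between lists was not tested. Of 7 indolic core genes 5 were called lower on average (35.9% of all genes), 1 higher (34.6%) and 1 was not called. The average covers effects that changed with time. At 7 h 6 of the 7 were called lower (20.6% of all genes) with a median of -0.71. The shaded mean was then 49.4% of the unshaded one for CYP79B2, 58.7% for SOT16, 60.9% for CYP83B1 and 61.2% for GSTF9. It was 62.2% for CYP79B3, 78.0% for GSTF10 and 111.3% for GGP3, which was not called. GGP1, SUR1 and UGT74B1 stood at 60.3%, 59.4% and 54.6% at that time. At 5 d 3 of the 7 were called lower (33.7% of all genes) and 2 higher (4341 of all 19553 genes), with a median of -0.05. The shaded means of the 7 then ran from 73.8% (GSTF9) to 247.9% (CYP79B3) of the unshaded ones. Those of GGP1, SUR1 and UGT74B1 were below this range, at 67.4%, 52.5% and 71.8%. GSTF9, a phi-class glutathione S-transferase, fell by 0.45 ± 0.04 (SE). CYP79B3, which makes the indolic aldoxime, rose by 0.27 ± 0.07 on average, but its sign changed with time. CYP79B3 was at 96.0 and 91.2 FPKM in shade against 140.2 and 161 without it at 7 h (log2 fold change -0.68 ± 0.17, adjusted p = 0.00476, limma). At 5 d CYP79B3 was at 227 and 248 FPKM in shade against 85.2 and 107 without it (1.31 ± 0.17, adjusted p = 1.23e-05). Of the indolic regulators, MYB34 fell by 0.67 ± 0.06 while MYB51 and MYB122 rose, MYB51 by 1.49 ± 0.12. Among 4 genes for the sulfate donor and for glutathione, 2 were called lower averaged over times and 2 higher (35.9% and 34.6% of all genes). The adenylylsulfate kinases APK1 and APK2 were lower, and GSH1 and GSH2 higher. APK1 fell by 0.64 ± 0.04 and GSH1 rose by 0.06 ± 0.02. At 7 h, 3 d and 5 d 0 of the 4 were called higher, where 4170, 5595 and 4341 of all 19553 genes were. The shaded mean of GSH2 was 116.9% of the unshaded one at 3 h and 89.1% at 5 d, and that of GSH1 98.0% at 5 d. APK2 was at 41.6% at 7 h and at 89.6% at 3 d, where its groups overlapped.

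**Figure D4:**
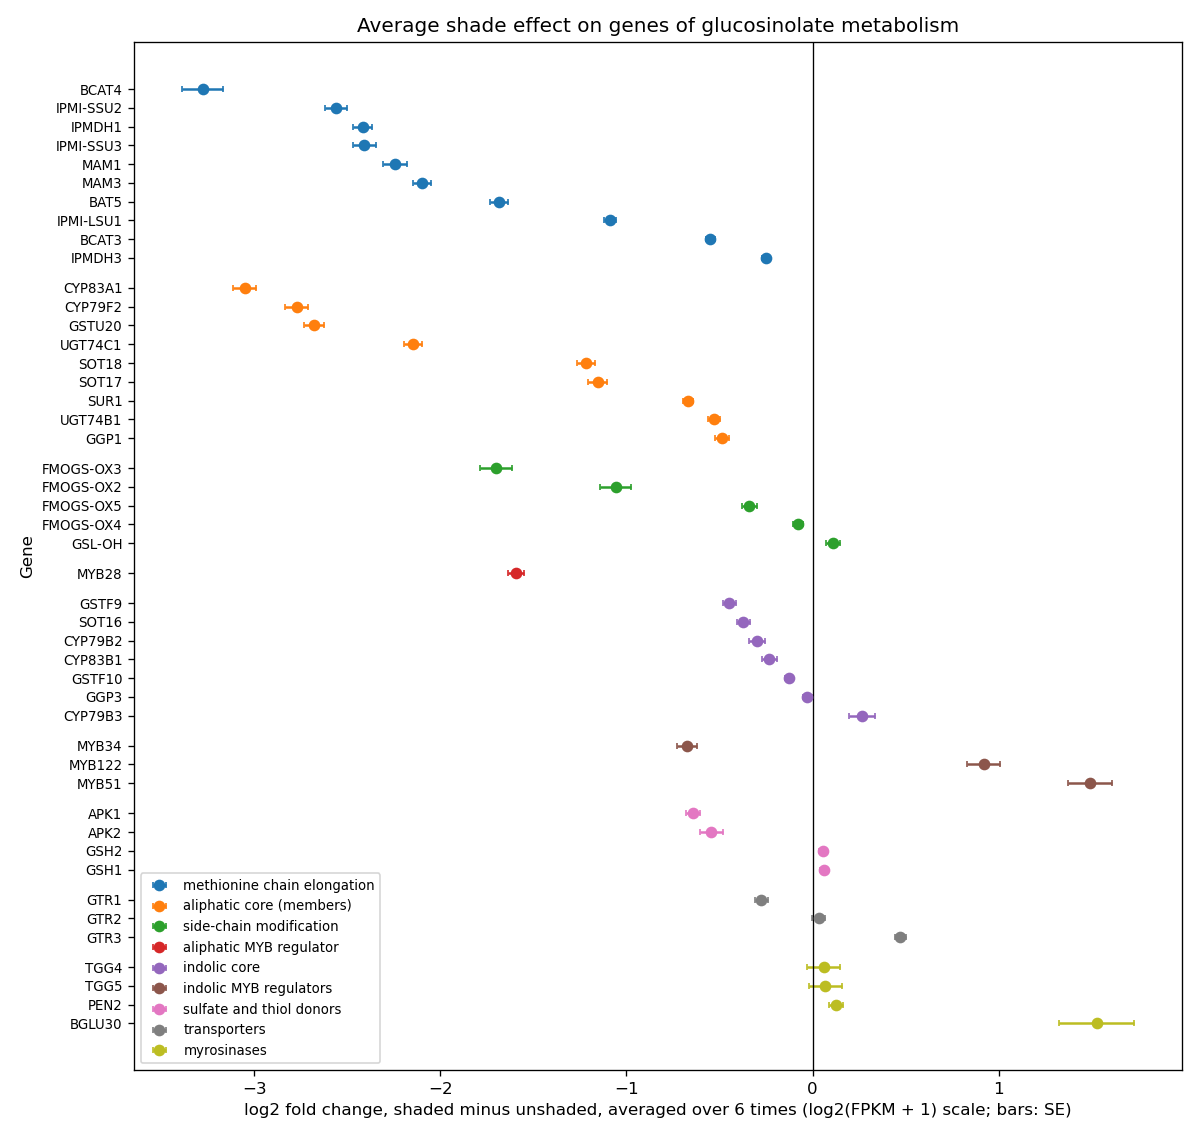
Log2 fold change, shaded minus unshaded, averaged over 6 times on the log2(FPKM + 1) scale (x axis, bars are SE from limma) for each tested gene (y axis), coloured by its list. The aliphatic core spans -3.05 for CYP83A1 to -0.49 for GGP1, and the indolic core -0.45 for GSTF9 to 0.27 for CYP79B3.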

How the data were processed

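RNA was sequenced from 24 Arabidopsis root libraries. Per the submitters' processing notes, the tools included Cufflinks 2.1.1 and the build TAIR10. The authors deposited FPKM values, 1 column per library, and all columns were assigned to samples by title. The aligner, the annotation, filters and the handling of shared reads are not given in the sources used here. A tomato table was not used here.

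Values were analysed as log2(FPKM + 1) for 19553 of 33557 genes, those with a mean FPKM of at least 1. limma 3.58.1 in R 4.3.3 estimated a mean for each of 12 groups, with an intensity trend. All 24 libraries shared the estimate of the spread, and Benjamini-Hochberg adjustment ran over all genes tested. The code was tested on simulated data. Relative depth came from the most frequent ratio of low values between libraries. Sequences came from RefSeq TAIR10.1 (Biopython 1.88), and plots from matplotlib 3.10.9.

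The members, the gene lists and the tests were chosen with earlier results of these data known. Named genes are all 10 members, the lowest and highest average effect in each other list, and the 8 genes most like CYP83A1. MYB29, MYB76, MYB122, APK2, GSH2, GTR2, CYP79B2, CYP83B1, SOT16, GSTF10, GGP3, TGG1, TGG2 and TGG5 were added after their values were seen. Alternatives were a pseudocount of 0.1, no filter, median-of-ratios scaling, equal sums, replicate blocks, fits to single times and leaving out each library.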

Additional observations from a re-analysis of the deposited data

Results flagged for a closer look

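The effect of shade differed between times for each of the 9 tested core genes, by the light by time interaction in limma adjusted over all genes tested, of which 55.8% were called. The adjusted p was 3.85e-09 for CYP79F2, 5.69e-10 for CYP83A1, 8.98e-10 for GSTU20 and 2.73e-09 for UGT74C1. It was 7.09e-05 for SOT17, 8.43e-07 for SOT18, 3.23e-05 for SUR1, 0.00149 for UGT74B1 and 0.0215 for GGP1. GGP1 lost this call in 3 of 24 fits that each left out 1 library, with an adjusted p from 0.00791 to 0.0885 over the 24. With 2 libraries a group, outlying libraries were not looked for.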

How the results depend on the processing

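Fitting only the groups compared lowered the count of genes called from 1169 to 176 at 30 min and from 5009 to 1593 at 3 h. Equal sums raised the count for the change from 7 h to 1 d from 676 to 1078. The cause was not tested. Same-numbered libraries did not deviate together, with correlations from -0.0287 to 0.0653 in 6 pairs, so the letters are taken as names only. A replicate block across times kept every call of the 9 genes. With a replicate block within times, 627 genes were called at 30 min, and 806, 136, 226, 333 and 332 for the successive changes of the effect, against 1633, 707, 676, 974 and 1049. That block ended 9 calls of members, the interaction of GGP1 (adjusted p = 0.105), the effect of CYP79F2 at 30 min (0.16) and those of CYP83A1 (0.0679) and SOT18 (0.121) at 3 h. It also ended the steps of UGT74B1 (0.0727) and UGT74C1 (0.0703) from 30 min to 3 h, SOT17 (0.142) from 3 h to 7 h, and GSTU20 (0.071) and SOT18 (0.109) from 7 h to 1 d. Leaving out each library gave 471 to 1222 genes at 30 min, 3160 to 5143 at 3 h, 6062 to 8366 at 7 h, 7826 to 10064 at 1 d, 9299 to 11488 at 3 d and 8613 to 11024 at 5 d. It gave 13415 to 13702 genes for the average and 9688 to 10898 for the interaction. The count at 30 min was 471 without the second shaded and 636 without the second unshaded library of that time, and 3160 at 3 h without the second shaded library of 3 h. Without 1 library the average log2 fold change of CYP83A1 stayed between -3.09 and -3.02 and that of GGP1 between -0.51 and -0.46. No value of a member (0) changed direction with a call. A pseudocount of 0.1 ended 2 calls and no filter 4. Both ended CYP79F2 at 30 min (adjusted p = 0.0642 and 0.0766) and CYP83A1 at 3 h (0.059 and 0.057), and no filter also ended SOT18 at 3 h (0.054) and UGT74C1 from 30 min to 3 h (0.0554).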

Other observations

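Genes of glucosinolate transport and breakdown differed between shaded and unshaded roots in both directions, and no test compared them with the core enzymes. Averaged over times, 1 of 3 transporters was called lower and 1 higher, near the shares of all genes (35.9% and 34.6%). GTR1 was lower in shade by 0.27 ± 0.03 on the log2 scale averaged over times (SE, adjusted p = 2.61e-06, limma). GTR3 was higher by 0.47 ± 0.03 and GTR2 was not called. The shaded mean of GTR1 was 67.0% of the unshaded one at 3 d and 72.0% at 5 d. Its change with time in shade was not called (adjusted p = 0.116, limma), whereas that in unshaded roots was (adjusted p = 0.000465). The light by time interaction of GTR1, which compares the 2 courses, was called (adjusted p = 0.0137, limma), as for 55.8% of all genes. GTR1 means were 13.1 FPKM at 30 min and 14.7 at 5 d in shade, against 13.6 and 20.4 without it. The average of GTR2 (0.03 ± 0.03) covered opposite effects, with a shaded mean at 68.6% of the unshaded one at 3 h (log2 fold change -0.53 ± 0.08, adjusted p = 0.000303, limma) and at 168% at 5 d (0.74 ± 0.08, adjusted p = 3.82e-06). GTR3 was at 136 and 114 FPKM in shaded and 58.9 and 58.7 in unshaded roots at 3 d. The shaded mean of GTR3 was lower than the unshaded one at 3 h only, at 79.8% with no overlap of the groups. It was 115.6% at 30 min and 223.6% at 5 d. Of 7 genes for myrosinases and related glucosidases, 4 passed the filter and 2 were called, both higher in shade, where 34.6% of all genes tested were called higher. BGLU30, a glucosidase known from dark-treated leaves, rose by 1.53 ± 0.20, though its shaded libraries at 3 d lay far apart at 15.3 and 74.3 FPKM against 1.65 and 3.41 in unshaded ones. TGG4, a root myrosinase, had a log2 fold change of 0.06 ± 0.09 (adjusted p = 0.566), and TGG1 and TGG2, known from shoots, were at or near 0 in all 24 libraries. TGG4 is a close copy of TGG5, so reads may be split between them.

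CYP79F1 was tested only without the filter on low values, over 26390 genes. It was then called at 3 d (adjusted p = 0.00166, limma) and 5 d (3.12e-05), at levels of at most 0.324 FPKM.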
